A study of Mus musculus with 2 samples.

Results

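The genes described here are acute phase proteins of the liver together with Lcn2, chosen by symbol: Lcn2, Saa1, Saa2, Saa4, Orm1, Orm2, Hp, Hpx, Crp and Itih4. Of these 10 genes, 8 were among the 19465 genes of the count tables, and Saa1 and Saa2 were not analysed here. Spatial transcriptomics (ST) of formalin-fixed, paraffin-embedded liver had been done with the 10x Visium assay, in which probe pairs bound to a section are counted per spot as unique molecular identifiers (UMIs). The sections came from a mouse with AEG-1 knocked out in myeloid cells (AEG-1ΔMAC) and from a floxed littermate (AEG-1fl/fl, here the floxed liver), 1 section each. Each genotype was therefore 1 library from 1 mouse, no test between genotypes was possible, and the 95% intervals given cover counting error only. Both mice carried the floxed allele of Mtdh, the gene of AEG-1, and in AEG-1ΔMAC Cre expressed from the Lyz2 locus deletes it in myeloid cells such as macrophages and neutrophils. By the sample labels both mice were 27 weeks old and had received a high fat/high sugar diet (HF/HSD) for 20 weeks from the age of 7 weeks, whereas the methods of the study describe the mice of this assay as fed control diet, so the diet is not settled.

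Acute phase proteins are plasma proteins whose synthesis in hepatocytes changes with inflammation. IL-6 acts through gp130 and STAT3, and IL-1 and TNF act through NF-κB and C/EBP factors, on the promoters of the positive ones, while albumin and other negative ones fall. Glucocorticoid strengthens the induction of several of them, and Lcn2 is also stored in the granules of neutrophils, so its RNA can come from immature cells of that lineage as well as from hepatocytes.

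After the spot filter, 2140 AEG-1ΔMAC spots held 45453286 UMIs and 2540 floxed spots held 50322850 UMIs, with medians of 20929.5 and 18285 UMIs per spot. The libraries shared 1782 spot barcodes, which name positions on a capture area and not molecules. Hepatocyte markers were abundant in both sections, and their sum was 155834 CPM (UMIs of a gene per 1000000 UMIs of the library) in AEG-1ΔMAC and 219119 CPM in the floxed liver. Alb alone made up 87957 and 141947 CPM, a log2 ratio of -0.69. The other hepatocyte markers ranged from -0.31 to 0.61, so the lower sum was not shared by all of them. The median log2 ratio of all 6933 genes whose mean reached 10 CPM was 0.15, so every ratio below can be read against 0.15. Mtdh had a mean of 63.3 CPM and a log2 ratio of 0.14, which checks nothing about a deletion in myeloid cells, since a section holds mostly RNA of other cells. A spot can hold several cells, and more cells of a type and more RNA per cell cannot be told apart in these counts.

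The starts of the genes with the highest ratios are shown because these genes are the ones the results turn on. They are the 300-base RefSeq promoter windows (GRCm38.p6, 250 bases before the start to 50 after it) of Lcn2 (chr2:32387690-32387989, minus strand), Saa4 (chr7:46732554-46732853, minus strand), Orm2 (chr4:63362199-63362498, plus strand) and the further copies Orm3 (chr4:63355908-63356207, plus strand) and Saa3 (chr7:46715627-46715926, minus strand). Each is written 5′ to 3′ along the gene, and capitals mark matches to a C/EBP motif (TTNNGNAA), a κB motif (GGNNTTTCC) or a STAT motif (TTCNNNGAA), searched on both strands.
Lcn2: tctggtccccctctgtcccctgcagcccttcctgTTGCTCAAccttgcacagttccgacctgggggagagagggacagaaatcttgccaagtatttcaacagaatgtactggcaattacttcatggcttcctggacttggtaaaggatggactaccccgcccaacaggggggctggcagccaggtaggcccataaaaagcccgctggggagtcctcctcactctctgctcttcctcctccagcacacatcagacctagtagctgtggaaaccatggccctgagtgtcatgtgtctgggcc
Saa4: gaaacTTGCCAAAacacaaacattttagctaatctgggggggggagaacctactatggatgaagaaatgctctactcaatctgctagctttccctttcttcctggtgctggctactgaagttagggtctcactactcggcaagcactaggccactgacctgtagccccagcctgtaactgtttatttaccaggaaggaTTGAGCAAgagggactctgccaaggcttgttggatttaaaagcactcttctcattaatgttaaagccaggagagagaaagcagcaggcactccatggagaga
Orm2: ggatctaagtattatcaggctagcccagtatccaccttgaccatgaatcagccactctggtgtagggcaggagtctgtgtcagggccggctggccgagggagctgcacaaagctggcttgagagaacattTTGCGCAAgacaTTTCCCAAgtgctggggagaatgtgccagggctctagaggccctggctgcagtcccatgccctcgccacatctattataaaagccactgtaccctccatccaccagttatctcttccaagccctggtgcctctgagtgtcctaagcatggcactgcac
Orm3: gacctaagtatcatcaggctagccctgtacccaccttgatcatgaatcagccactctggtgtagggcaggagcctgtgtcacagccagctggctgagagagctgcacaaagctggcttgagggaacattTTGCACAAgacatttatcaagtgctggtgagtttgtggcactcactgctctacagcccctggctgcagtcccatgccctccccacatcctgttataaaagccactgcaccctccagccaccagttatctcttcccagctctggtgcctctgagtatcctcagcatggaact
Saa3: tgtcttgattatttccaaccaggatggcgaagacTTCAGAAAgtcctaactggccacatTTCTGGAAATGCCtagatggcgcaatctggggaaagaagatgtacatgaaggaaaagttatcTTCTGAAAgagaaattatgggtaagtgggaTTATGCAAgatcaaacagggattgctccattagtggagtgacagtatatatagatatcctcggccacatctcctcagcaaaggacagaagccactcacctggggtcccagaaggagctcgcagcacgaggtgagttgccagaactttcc
The capitals in Lcn2 were 1 C/EBP match that began 216 bases upstream of the start. Saa4 had C/EBP matches 245 and 52 bases upstream, and Orm2 had C/EBP matches 120 and 108 bases upstream. Orm3 had 1 C/EBP match, 121 bases upstream. Saa3 had 4 C/EBP matches and 1 κB match, which overlapped the C/EBP match that began 191 bases upstream. The promoter table and the RefSeq gene spans place the starts of these copies differently: the start used for the window lies 3939 bases inside the span of Saa3 and 89 bases inside that of Orm3, and for the other 3 genes both are the same. Of the 6 measured members with an entry in the promoter table, 5 had a C/EBP match, 1 (Itih4) had a STAT match and 0 had a κB match. Among 32851 promoter windows of the same length, 40.7% held the C/EBP motif, 8.30% the STAT motif and 5.82% the κB motif. The table has no entry for Orm1 or Hp.

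Lcn2 and Orm2 were the members that stood highest in AEG-1ΔMAC, at 3.31-fold and 5.42-fold the floxed level. By CPM, Saa4 was 1.84-fold higher, Orm1 and Crp were slightly higher, Hp and Itih4 were level, and Hpx was lower. Read against the median of all genes, Crp was level at 0.03, and Hp and Itih4 lay below it at -0.16 and -0.19. Thus 2 of 8 members were at least 2-fold higher and 0 were at least 2-fold lower, where 1.27% of the genes that reached 10 CPM were at least 2-fold higher and 0.519% lower. Of the members 7 reached that minimum and 6 did so in both libraries: Orm2 reached it only through AEG-1ΔMAC, and the mean of Lcn2, 9.34 CPM, lies just under it. At a mean of at least 1 CPM the shares were 1.74% and 1.55%, at least 50 CPM 1.6% and 0.55%, and among genes of like level (5 to 50 CPM) 1.15% and 0.859%. The median log2 ratio of the 8 members was 0.24, against 0.15 over all genes, and the members ranged from -0.47 to 2.44. At the lower size of 1.5-fold, Saa4 joined Lcn2 and Orm2, where 4.3% of genes were that much higher and 1.79% lower.

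**Figure D1:**
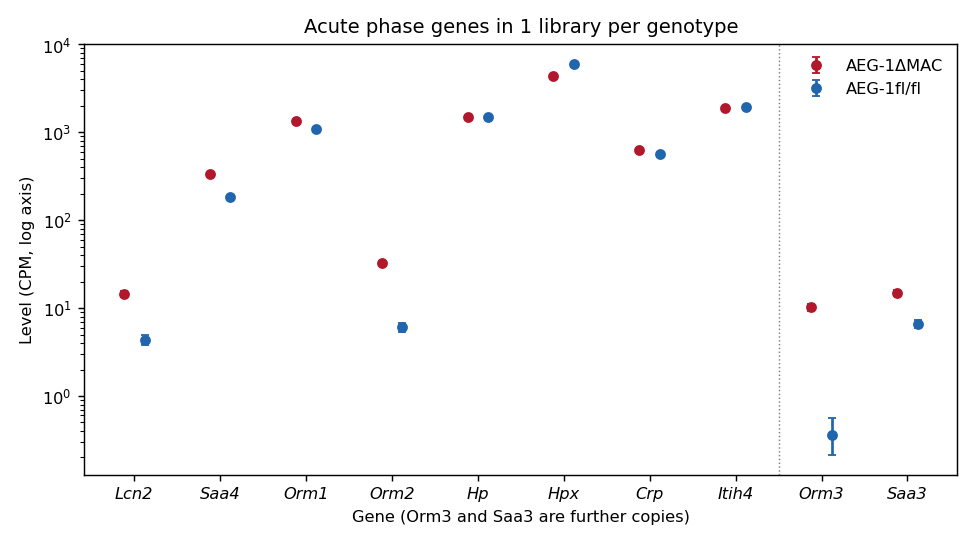
Level of each measured member, and of the copies Orm3 and Saa3, in the 2 libraries (CPM, log axis). Points are 1 library each and bars are exact Poisson 95% intervals. Lcn2, Orm2, Orm3 and Saa3 sat clearly higher in AEG-1ΔMAC, while Hp and Itih4 nearly coincided and Hpx sat lower.

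Lcn2 (chr2:32384637-32387739, minus strand), a lipocalin that binds bacterial siderophores and so withholds iron, had 652 UMIs in AEG-1ΔMAC and 218 in the floxed liver. This was 14.3 CPM (13.3 to 15.5) against 4.33 CPM (3.78 to 4.95), and the intervals of the 2 libraries did not overlap. The log2 ratio was 1.73 (1.504 to 1.96), above 99.7% of genes past that minimum. The study reported the opposite direction for Lcn2 in hepatocytes of HF/HSD-fed mice, by single-cell RNA sequencing. There it was higher in AEG-1fl/fl than in AEG-1ΔMAC livers. That assay counts single cells and not whole spots, and why the directions differ was not tested. Neutrophil markers as a sum were lower in AEG-1ΔMAC: the summed level of 12 markers was 5.13 CPM in AEG-1ΔMAC and 22.2 CPM in the floxed liver, a log2 ratio of -2.12 (-2.33 to -1.91). S100a8 and S100a9 gave 765 of the 1119 floxed UMIs, and 1 floxed spot held 251 of all 12. Without the spots of at least 5 Lcn2 UMIs, that one among them, the log2 ratio of the sum was -1.74 (-1.96 to -1.53), and it was -1.01 (-1.33 to -0.70) when S100a8 and S100a9 were left out too. In AEG-1ΔMAC 5 of the 12 markers were at 0, the granule genes Ngp and Camp, which had 97 and 46 UMIs in the floxed liver, and Ly6g, Elane and Mpo, which had only 3, 1 and 1. The markers were not uniform, since Csf3r was at -0.40 (-0.78 to -0.02) and Cxcr2, with 10 against 9 UMIs, at 0.30 (-1.15 to 1.77). Without the spots that held a neutrophil marker UMI (184 in AEG-1ΔMAC and 500 in the floxed liver), the log2 ratio of Lcn2 was 1.96 (1.70 to 2.23).

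Of the serum amyloid A genes, which encode apolipoproteins of high density lipoprotein, Saa4 (chr7:46727992-46732603, minus strand) is the constitutive member. It stood at 337.1 CPM in AEG-1ΔMAC, against 183.4 CPM in the floxed liver, a log2 ratio of 0.88 (0.84 to 0.92). Saa3, the inducible member made in several tissues, had 14.9 against 6.62 CPM, with a log2 ratio of 1.17 (0.97 to 1.36). Of the 2094 bases of the Saa4 transcript, 131 aligned with Saa3, 404 with Saa1 and 374 with Saa2. Over these bases it was 77.1% identical to Saa3, 69.6% to Saa1 and 69.0% to Saa2. The stretches are unlike, so these percentages do not rank the copies by likeness. Saa4 shared 0 windows of 50 bases with any of them. The Saa1 and Saa2 transcripts, in contrast, were 94.4% identical to each other.

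Orm1 (chr4:63344556-63348163, plus strand) and Orm2 (chr4:63362449-63365877, plus strand) encode α1-acid glycoprotein, a plasma carrier of drugs and lipids, and lie beside Orm3 (chr4:63356069-63359506, plus strand). Orm1 stood at 1364 CPM in AEG-1ΔMAC, against 1104 CPM in the floxed liver, a log2 ratio of 0.31 (0.29 to 0.32). Orm2 had 32.7 CPM (31.1 to 34.4) against 6.04 CPM (5.38 to 6.76), a log2 ratio of 2.44 (2.26 to 2.62) that exceeded 99.8% of genes. Orm3, with 467 UMIs against 18, had 10.3 against 0.358 CPM, with a log2 ratio of 4.84 (4.17 to 5.61). The 3 copies thus had unequal ratios, and none of them fell in AEG-1ΔMAC.

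The Orm copies are near-identical, and how far the probes tell them apart was not tested. Orm1 and Orm2 transcripts were 91.0% identical and shared 20.4% of windows of 50 bases, Orm1 and Orm3 shared 2.20%, and Orm2 and Orm3 shared 3.58%. Orm1 made up 97.7% (97.5 to 97.8, Clopper-Pearson) of the Orm1 and Orm2 UMIs in AEG-1ΔMAC and 99.5% (99.4 to 99.5) in the floxed liver. Orm2 made up 76.1% (74.1 to 78.0) of the Orm2 and Orm3 UMIs in AEG-1ΔMAC and 94.4% (91.3 to 96.7) in the floxed liver. Both shares moved between the libraries beyond counting error, which shows only that the counts of the copies are not 1 quantity. Along the lobule the Orm1 share in AEG-1ΔMAC was 97.8% (97.6 to 98.0) in zone 1, 97.9% (97.7 to 98.1) in the middle and 97.1% (96.9 to 97.3) in zone 3, the last below the others beyond counting error. In the floxed liver it was 99.4% to 99.5%, with intervals that overlapped.

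Hp (chr8:109575128-109579172, minus strand), haptoglobin, binds free haemoglobin. It stood at 1487 CPM in AEG-1ΔMAC, against 1503 CPM in the floxed liver, a log2 ratio of -0.02 (-0.03 to -0.00) that turned to 0.03 when both libraries were placed on 1 zone index and its parts weighted equally. Hpx (chr7:105591611-105600116, minus strand), hemopexin, binds free haem. It had 4361 CPM against 6041 CPM, a log2 ratio of -0.47 (-0.48 to -0.46), and only 2.57% of genes lay lower. The 2 scavengers thus differed from each other, with Hp level by CPM and Hpx 1.39-fold lower in AEG-1ΔMAC. Haemoglobin and other erythroid RNA summed to 1017 CPM in AEG-1ΔMAC and 1213 CPM in the floxed liver, and its part in these values was not tested.

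Crp (chr1:172698056-172699966, plus strand), a pentraxin that is only weakly induced in mice, stood at 632.5 CPM in AEG-1ΔMAC, against 561.4 CPM in the floxed liver, a log2 ratio of 0.17 (0.15 to 0.20). Itih4 (chr14:30886476-30901986, plus strand), a heavy chain of the inter-alpha-trypsin inhibitor family, had 1901 CPM against 1962 CPM, a log2 ratio of -0.05 (-0.06 to -0.03). Read against the median of all genes, Crp lay 0.03 above it and Itih4 lay -0.19 from it. All 8 members are annotated as protein-coding genes.

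**Figure D2:**
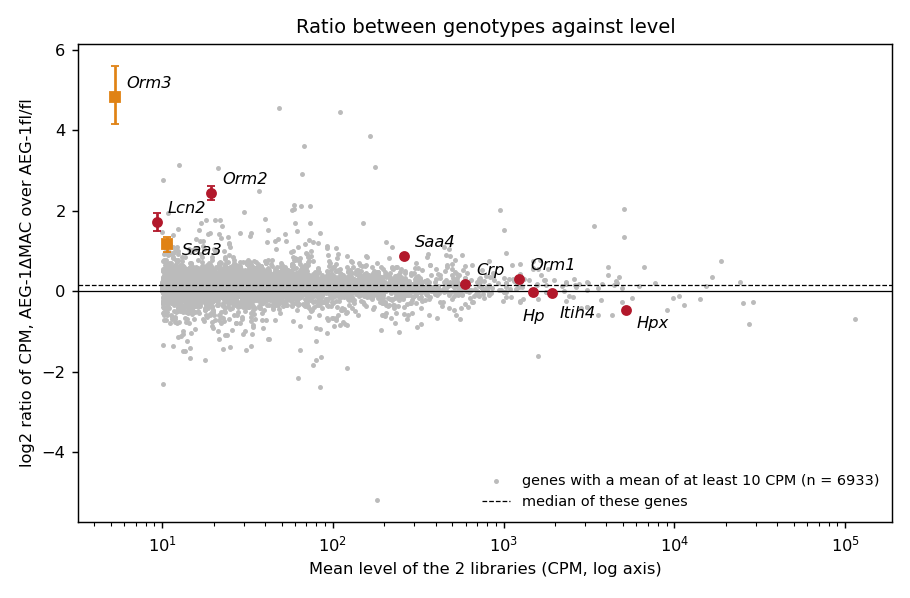
Log2 ratio of CPM (AEG-1ΔMAC relative to AEG-1fl/fl) against the mean level of the 2 libraries (log axis). Grey points are the 6933 genes that reached a mean of 10 CPM, red circles the measured members, orange squares Orm3 and Saa3, with 95% counting intervals. Orm2 and Lcn2 lie above nearly all genes of like level and Hpx lies below the median line at 0.15.

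How the members lay along the lobule was measured by ranking the spots of each library from zone 1 (around the portal vein) to zone 3 (around the central vein) and cutting the ranking into 3 equal parts. The index used 6 zone 1 and 3 zone 3 genes, none of them a member. Of landmark genes outside the index, 5 for zone 3 had log2 ratios of zone 3 over zone 1 from 1.87 to 3.29 in AEG-1ΔMAC and from 1.98 to 3.03 in the floxed liver, and 8 for zone 1 from -2.03 to -0.30 and from -1.65 to 0.01. None of the 8 members was zoned 2-fold: 0 were past it in either library, where 1.03% of 6924 genes were at least 2-fold higher in zone 3 and 0.737% lower in AEG-1ΔMAC, and 0.968% and 0.376% in the floxed liver. At 1.5-fold, Hpx in AEG-1ΔMAC and both Hpx and Lcn2 in the floxed liver were lower in zone 3, where 2.93% of genes were that much higher and 1.95% lower in the first library and 2.8% and 1.68% in the other. The ranking is made within each library, so the parts of the 2 libraries need not cover the same positions. By 1 index over both libraries, 936 AEG-1ΔMAC and 624 floxed spots fell in the zone 3 part. A pooled index also moves with the level of its own genes. The study lists Cyp2e1 and Pck1, genes of the index, as higher in AEG-1ΔMAC in some spot clusters. Position and level therefore cannot be told apart in that split.

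Hpx was higher in zone 1 in both libraries, and in AEG-1ΔMAC its gradient was the steepest of the members. Over 10 equal bins of the index it fell from 6446 to 2741 CPM in AEG-1ΔMAC and from 7944 to 4028 CPM in the floxed liver, lower in each bin than in the bin before. Its log2 ratio of the zone 3 over the zone 1 part was -0.81 (-0.82 to -0.79) and -0.64 (-0.65 to -0.62). Orm1 was likewise higher in zone 1, falling from 1632 to 1059 and from 1300.4 to 818.6 CPM over the bins, with log2 ratios of -0.40 (-0.43 to -0.37) and -0.47 (-0.50 to -0.44). Alb, for comparison, had -0.71 in AEG-1ΔMAC and -0.23 in the floxed liver.

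Saa4 took a different course in the 2 libraries, with zone ratios whose intervals did not overlap. In AEG-1ΔMAC it went from 269.2 CPM in the bin at the zone 1 end to 433.9 CPM in the bin at the zone 3 end, with a log2 ratio of zone 3 over zone 1 of 0.50 (0.44 to 0.55). In the floxed liver it stayed between 164.5 and 198.8 CPM, and the ratio was -0.04 (-0.11 to 0.03). The ratio between genotypes accordingly grew from 0.64 (0.57 to 0.71) in the zone 1 part to 0.78 in the middle part and 1.18 (1.11 to 1.24) in the zone 3 part.

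Lcn2 was even along the lobule in AEG-1ΔMAC, with 14.8, 14.1 and 14.1 CPM in the zone 1, middle and zone 3 parts and a log2 ratio of -0.08 (-0.36 to 0.20). In the floxed liver the 3 values were 6.10, 3.84 and 3.06 CPM, from 101, 67 and 50 UMIs, and the log2 ratio was -0.99 (-1.51 to -0.49). It was -0.57 (-1.40 to 0.23) between the outermost of 10 bins and -1.33 (-1.99 to -0.70) with spots matched on UMIs. The ratio between genotypes was 1.28 (0.94 to 1.64), 1.88 (1.48 to 2.30) and 2.20 (1.75 to 2.68) in the 3 parts. Saa3 followed the same course in the floxed liver, with a log2 ratio of -0.99 (-1.42 to -0.57), against -0.14 (-0.40 to 0.13) in AEG-1ΔMAC.

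Orm2 had 34.3, 29.2 and 34.7 CPM in the 3 parts of AEG-1ΔMAC and 7.07, 6.20 and 4.84 CPM in those of the floxed liver. Its log2 ratio between genotypes was 2.28, 2.24 and 2.84, so it was raised in every part. The direction of its gradient in the floxed liver depended on the cut: -0.55 (-0.98 to -0.12) between the outer parts, but 0.01 (-0.80 to 0.82) between the outermost of 10 bins. Hp, Itih4 and Crp had shallower gradients, with log2 ratios of zone 3 over zone 1 of -0.27, -0.21 and 0.14 in AEG-1ΔMAC and -0.13, -0.06 and 0.06 in the floxed liver. The median size of this ratio over all genes was 0.15 and 0.13. Between the outermost of 10 bins the values were -0.49, -0.39 and 0.19 in AEG-1ΔMAC and -0.29, -0.14 and 0.16 in the floxed liver.

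**Figure D3:**
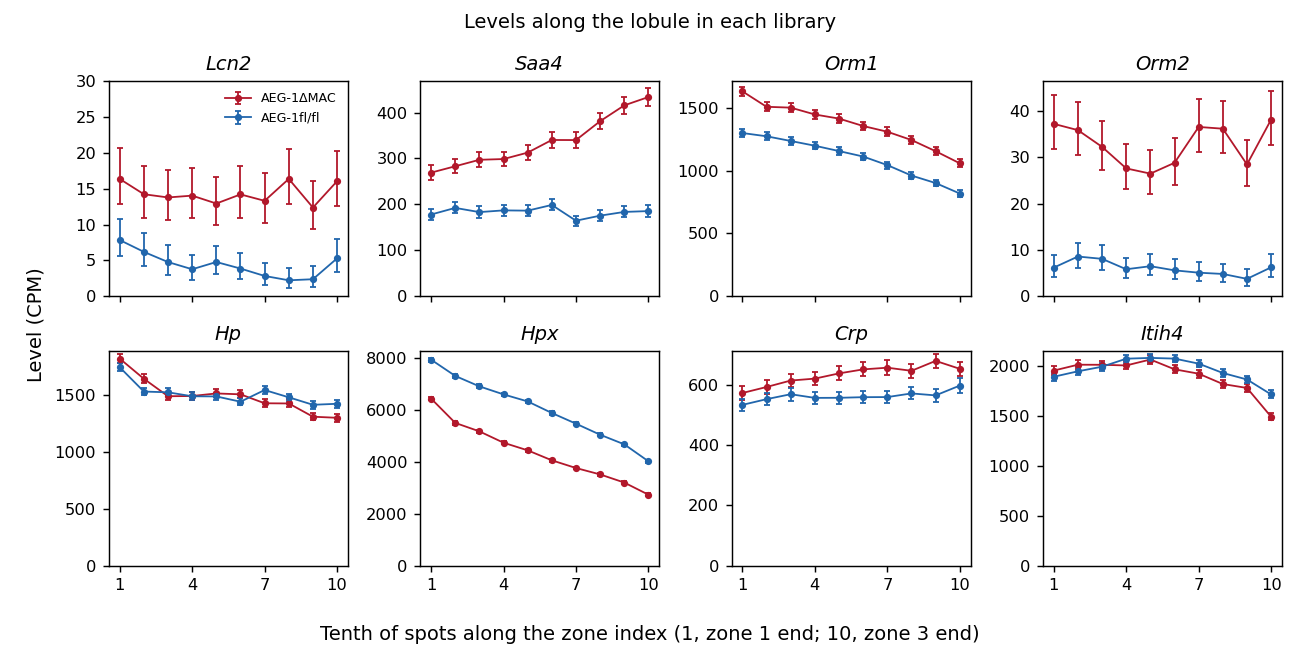
Level (CPM) of each measured member in 10 equal bins of spots along the zone index of each library, from the zone 1 end (1) to the zone 3 end (10). Points are the summed UMIs of a bin and bars are exact Poisson 95% intervals. Hpx and Orm1 fall towards zone 3 in both libraries, Saa4 climbs in AEG-1ΔMAC and stays flat in the floxed liver, and the Lcn2 and Orm2 profiles of the 2 libraries stay apart in every bin.

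Most members were in nearly every spot, and Lcn2 and Orm2 were not. Orm1, Hp, Hpx, Crp and Itih4 each had a UMI in at least 99.6% of the spots of either library. Lcn2 had a UMI in 457 of 2140 AEG-1ΔMAC spots (21.4%, 19.6 to 23.2) and 191 of 2540 floxed spots (7.52%, 6.52 to 8.61). With each spot thinned to 10000 UMIs, which left out 26 and 106 shallower spots, the shares were 11.7% (10.3 to 13.1) and 3.94% (3.21 to 4.80). Orm2 had a UMI in 45.2% and 10.6% of spots, and in 26.4% and 5.63% after thinning. Saa4 was in 99.2% and 94.4% of spots, and in 96.0% and 82.4% after thinning. As a background, 9 genes of tissues other than liver summed to 4 UMIs in each library. Gfap, on the same list, was left out because hepatic stellate cells can express it, and it was in 0.841% and 1.02% of spots. The shares of Lcn2 and Orm2 lie above that of Gfap in each library, whereas Orm3, in 18.8% of AEG-1ΔMAC spots, was in 0.709% (0.421 to 1.12) of floxed spots, not above Gfap.

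A few spots held many Lcn2 UMIs, and the floxed liver had too few of them for a comparison of the libraries. At least 5 Lcn2 UMIs were found in 10 AEG-1ΔMAC spots, with counts from 5 to 20, and in 1 floxed spot, with 8. The 10 AEG-1ΔMAC spots lay in 7 of the 10 zone bins and held 13.96% of the library's Lcn2. All 10 held Orm2 (2 to 19 UMIs a spot, 81 together) and Saa3 (6 to 21 UMIs, 122 together). None held a UMI of any of the 12 neutrophil markers. Only 184 of the 2140 AEG-1ΔMAC spots (8.60%) held one at all, so this absence does not set the 10 spots apart. Cxcl9, an interferon-induced chemokine, was also in all 10, but 2 spots held 141 and 99 of its 284 UMIs and the others 2 to 10 each. In the floxed spot the same 12 markers gave 251 UMIs, among them 65 of S100a8, 101 of S100a9, 48 of Ngp and 26 of Camp, and Orm2, Saa3 and Cxcl9 were at 0. These spots were picked by their Lcn2 count, so their Lcn2 level is no finding.

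In the 10 AEG-1ΔMAC spots Orm2 stood at 348.7 CPM against 31.1 CPM in the other spots, a log2 ratio of 3.49. Hp was at 2910 against 1480 CPM (log2 ratio 0.98) and Hpx at 7852 against 4343 CPM (0.85), although neither was higher in the AEG-1ΔMAC library as a whole. Orm1 was raised by 0.46, Crp by 0.29 and Itih4 by 0.16 on the log2 scale, and Saa4 was not distinct at 0.07 (-0.26 to 0.38). Orm3, the copy with the largest ratio between libraries, was in 2 of the 10 spots, with 12.9 against 10.3 CPM. The Orm copies thus differed within 1 section as well.

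**Figure D4:**
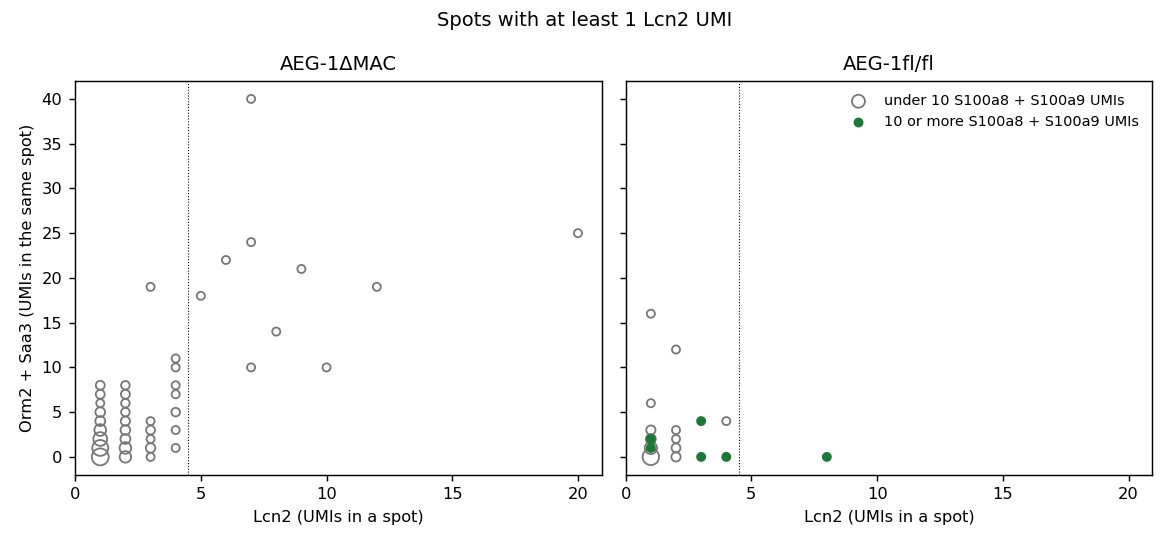
Lcn2 UMIs (x axis) and summed Orm2 and Saa3 UMIs (y axis) of each spot with at least 1 Lcn2 UMI, in AEG-1ΔMAC (left) and AEG-1fl/fl (right). Open grey circles, larger where more spots coincide, have under 10 summed S100a8 and S100a9 UMIs and filled green circles have 10 or more; the dotted line marks 5 Lcn2 UMIs. To its right are 10 open circles in AEG-1ΔMAC and 1 green circle in the floxed liver.

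Spots were also chosen by Saa3, itself picked after its values were seen. In AEG-1ΔMAC 17 spots had at least 5 Saa3 UMIs, and they included all 10 of the spots above, so their values largely repeat the earlier ones. Lcn2 was at 253.8 CPM in these against 12.1 CPM elsewhere, a log2 ratio of 4.39 (4.07 to 4.69), with Orm2 at 3.08, Hp at 0.81, Hpx at 0.64 and Saa4 at 0.14 on the same scale. In the floxed liver only 4 spots passed, with 4 Lcn2 UMIs in all. There Lcn2 was at 44.8 against 4.26 CPM, a log2 ratio of 3.40 (1.51 to 4.77), with Orm2 at 4.10, Hp at 0.66 and Hpx at 0.42. The floxed spot with 8 Lcn2 UMIs was not among these 4.

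The spots of at least 5 Lcn2 UMIs held 13.96% of the Lcn2 UMIs in AEG-1ΔMAC and 3.67% in the floxed liver. Leaving them out could therefore remove only a part of the difference. Without the spots of at least 5 Lcn2 UMIs, Lcn2 was at 12.4 CPM in AEG-1ΔMAC and 4.18 CPM in the floxed liver, a log2 ratio of 1.57 (1.34 to 1.81), and Orm2 had a log2 ratio of 2.36 (2.18 to 2.55). In the floxed liver, 6 spots with Lcn2 had 10 or more summed UMIs of S100a8 and S100a9, and they held 20 of the 218 Lcn2 UMIs (9.17%). In AEG-1ΔMAC no spot with Lcn2 had that many.

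Lcn2 was also measured where markers of other cell types were dense. In the spots richest in neutrophil markers Lcn2 was at 9.55 CPM against 3.81 CPM elsewhere in the floxed liver, a log2 ratio of 1.33 (0.82 to 1.81). In AEG-1ΔMAC it was at 11.8 against 14.6 CPM, -0.30 (-0.76 to 0.12). The 2 sets of spots are unlike, so these ratios are not comparable. The floxed set was the top 254 spots, and the AEG-1ΔMAC set was all 184 spots with any marker UMI. Csf3r gave 98 of the 233 marker UMIs in AEG-1ΔMAC. In the spots richest in cholangiocyte markers Lcn2 was higher in both, by 1.05 (0.53 to 1.54) in the floxed liver and 0.57 (0.23 to 0.89) in AEG-1ΔMAC. Whether these spots lay at bile ducts was not examined, and Spp1 gave 3049 of the 3967 marker UMIs in AEG-1ΔMAC. Without the spots of at least 5 Lcn2 UMIs the log2 ratios of Lcn2 were, in the same order, 1.05, -0.08, 1.12 and 0.81. Summed cholangiocyte markers were at 87.3 CPM in AEG-1ΔMAC and 88.2 CPM in the floxed liver, and Kupffer cell markers at 566.4 and 547.7 CPM. Single markers of both sets differed more than these sums, which the abundant ones carry. Sox9 was at 13.8 against 25.9 CPM (log2 ratio -0.91) and Marco at 13.9 against 36.1 CPM (-1.38). These were the lowest of their sets. The log2 ratios of the other cholangiocyte markers ranged from 0.19 to 0.31, and those of the other Kupffer cell markers from -0.25 to 0.21. Which cells the Lcn2 RNA came from was not tested.

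The pathway around the members was described by lists of related genes, each gene being counted when its mean was at least 10 CPM. None of the 8 IL-6 and IL-1 type ligands reached it. Of these Il6 had 7 UMIs in AEG-1ΔMAC and 11 in the floxed liver, Il1b had 150 and 154, and Tnf had 35 and 13, a log2 ratio of 1.58 (0.62 to 2.62). Of 13 receptors and kinases 0 were 2-fold apart, and they ranged from -0.22 for Il6st, which encodes gp130, to 0.95 for Il1r1, the IL-1 receptor, with a median of 0.18. Of 8 transcription factors, Cebpb (1.22) and Cebpd (1.005) were at least 2-fold higher and none was at least 2-fold lower, with a median of 0.13 and Stat3 at 0.12. Of 8 feedback genes only 3 reached the minimum. Of these Socs3, the STAT3-induced inhibitor of gp130 signalling, was at 1.53 with 24.6 against 8.51 CPM, so it reached the minimum only through AEG-1ΔMAC, and the lowest was Bcl3 at 0.31. The 5 others ranged from -0.24 for Nfkbiz to 1.06 for Socs2, which had 5.87 against 2.82 CPM.

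Among 21 other positive acute phase genes 2 were at least 2-fold higher, Hamp, which encodes hepcidin, at 1.11 and Saa3 at 1.17, the latter past the minimum only through its AEG-1ΔMAC level. The lowest was Apcs, serum amyloid P, at -0.95, and the median was 0.05. Against the median of all genes 7 lay above and 14 below, and against 0 there were 11 above and 10 below. Of 11 negative acute phase genes 10 lay below 0, and as many below the median of all genes, with a median of -0.31. In that list Serpina7, thyroxine-binding globulin, was at least 2-fold lower at -1.46, and the highest was Rbp4 at 0.25. Of all genes that reached 10 CPM, 19.9% lay below the log2 ratio of Hp, -0.02. The 10 of 21 positive genes below 0 are a larger share than that too, so ratios below 0 were not particular to the negative list.

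Of 4 receptors and partners of the members Cd163, the macrophage receptor for haptoglobin-haemoglobin complexes, was higher at 1.44 with 27.9 against 10.3 CPM. The lowest was Hmox1, haem oxygenase, at -0.73. Of 7 glucocorticoid-induced genes 3 were at least 2-fold higher, Dusp1 at 2.11, Zbtb16 at 1.42 and Fkbp5 at 1.24, the lowest was Sgk1 at 0.01 and the median was 0.78. Against the backgrounds of 1.27% higher and 0.519% lower, these are counts in 2 libraries and no test of a list.

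**Figure D5:**
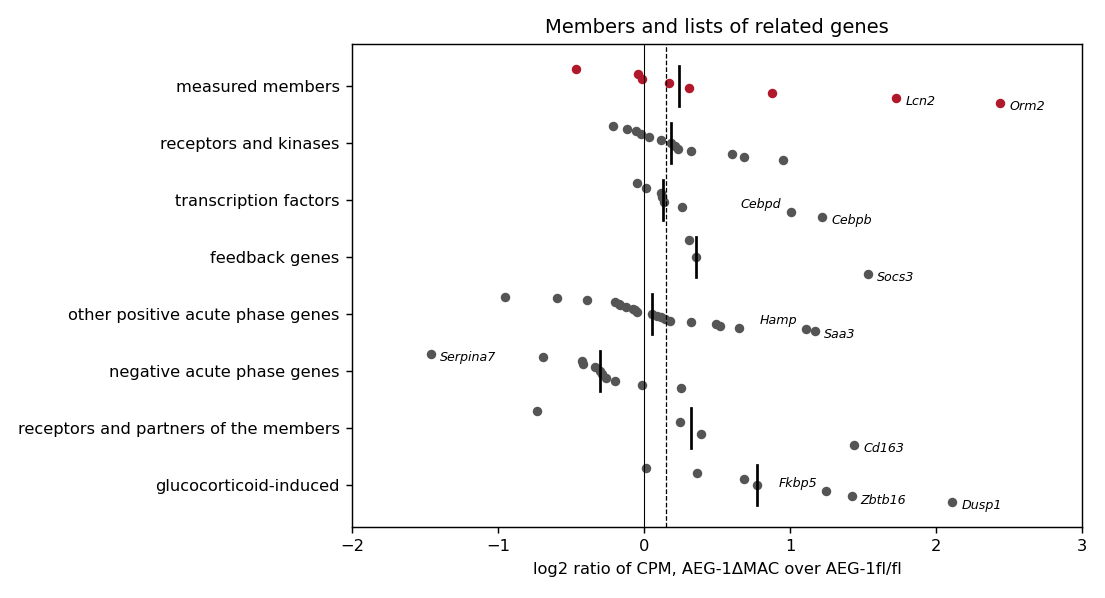
Log2 ratio of CPM (AEG-1ΔMAC relative to AEG-1fl/fl) of the 8 measured members and of each list's genes that reached a mean of 10 CPM, 1 point a gene, with the median of each list as a bar. The dashed line is the median of all genes, 0.15. Genes at least 2-fold apart are named, and the negative acute phase genes lie mostly to the left of the dashed line.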

How the data were processed

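The submitters' processing notes name Space Ranger 2.0.1, Seurat 4.3.0 and the build mm10. The deposited files hold raw UMI counts per gene and spot. They list 2149 AEG-1ΔMAC and 2543 floxed spots, the numbers the study gives after its filter; applied here, that filter (at most 50000 UMIs, 100 to 7000 genes) left 2140 and 2540. Groups came from the genotype labels. UMIs were summed over spots and scaled to CPM, where 10 CPM was 455 and 503 UMIs. Because counts depend on the probes, levels were not compared between genes. Log2 ratios have exact conditional binomial 95% intervals and levels exact Poisson ones (Python 3.11.15, scipy 1.17.1), tested on simulated data. Since spots are not replicates, no test was run. Spots were placed by scaled log-normalised Cyp2e1, Cyp1a2 and Oat minus Pck1, Hal, Gls2, Cyp2f2, Hsd17b13 and Arg1. Spots rich in a cell type were the 10% with the highest summed marker CPM, or those with a marker UMI where these were fewer. Promoters, positions (GRCm38.p6) came from RefSeq, strands and transcripts from GENCODE M21.

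Genes named were the members, list genes at least 2-fold apart or highest or lowest of a list (1 such gene is not reported here), Alb, and the 5 genes most correlated with Lcn2 and Orm1 over spots; Orm3, Saa3, Cxcl9 and the neutrophil genes of the Lcn2-rich spots, Il6, Il1b, Tnf, Socs2, Nfkbiz, Marco, Sox9 and Stat3 were added after their values were seen. Members and lists were chosen with earlier results of these data known. Alternatives were TMM (edgeR 4.0.16), other totals, spot sets, zone indices and thinning; the spots with at least 5 Lcn2 or Saa3 UMIs, the 5 to 50 CPM range, the parts of the neutrophil sum and the background without Gfap were chosen after seeing the data.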

Additional observations from a re-analysis of the deposited data

How the results depend on the processing

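No paired analysis was possible because each genotype had 1 library. Over 10 alternative scalings and spot sets, the log2 ratio between genotypes ranged from 1.57 to 1.96 for Lcn2, 2.29 to 2.53 for Orm2, 0.73 to 0.91 for Saa4, 0.16 to 0.40 for Orm1, 0.03 to 0.19 for Crp, -0.19 to -0.02 for Itih4 and -0.62 to -0.34 for Hpx. Hp went from -0.015 to 0.025 with 1 zone index over both libraries and equal weight for its parts, and as low as -0.16 otherwise, so it has no settled direction. The median of the members, 0.24, became 0.11 with TMM factors, 0.096 with the 50 most abundant genes left out of the total, 0.093 relative to the median of all genes and 0.27 with the pooled zone index. Members zoned at least 2-fold numbered 0 in both libraries. In AEG-1ΔMAC there was 1 between the outermost of 10 bins, Hpx at -1.23, and 1 at the 1.5-fold size. In the floxed liver there was 1 with spots matched on UMIs, Lcn2 at -1.33, and 2 at the 1.5-fold size. The zonation of Orm2 in the floxed liver became 0.014 between the outermost bins. Thinned to 5000 UMIs, 6.30% of AEG-1ΔMAC and 1.94% of floxed spots held Lcn2. The causes were not tested. With 1 library per genotype, the spread between mice, sections and capture areas is unknown, and the low counts of Lcn2 and Orm2 in the floxed liver limit what can be said of their zonation there.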

Other observations

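Over spots, the members did not vary as 1 group. Of their 28 pairs the correlation of log-normalised levels had a median of 0.09 in AEG-1ΔMAC (from -0.22 to 0.42) and 0.03 in the floxed liver (from -0.07 to 0.53). The spots of a library share its section and depth, so these are descriptions. Orm1 and Hpx, both higher in zone 1, had 0.38 and 0.53. Orm1 and Hp had 0.42 in AEG-1ΔMAC and 0.04 in the floxed liver, and Saa4 and Hpx, with opposite gradients in AEG-1ΔMAC, had -0.22 there.

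Of 6926 genes ranked by the lower correlation of the 2 libraries, those most like Orm1 were Cyp2f2 (0.50 and 0.52), Mup3 (0.46 and 0.48), Pck1 (0.54 and 0.42), Mup20 (0.51 and 0.41) and Hsd17b13 (0.40 and 0.42), of which Cyp2f2, Pck1 and Hsd17b13 are zone 1 genes of the index and the Mup genes belong to a family of near-identical copies. Those most like Lcn2 were Cxcl9 (0.34 and 0.12), Saa3 (0.42 and 0.11), H2-Eb1 (0.14 and 0.10), Coro1a (0.10 and 0.09) and H2-Aa (0.10 and 0.09), weak values in sparse counts. Saa1 could not be ranked.

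In the spots richest in cholangiocyte markers Hpx was higher than elsewhere by 0.30 (0.28 to 0.32) in AEG-1ΔMAC and 0.27 (0.25 to 0.28) in the floxed liver on the log2 scale, and Saa4 was lower in AEG-1ΔMAC at -0.31 (-0.39 to -0.22). In the spots richest in erythroid RNA Hp was higher by 0.12 (0.08 to 0.15) and 0.16 (0.13 to 0.20). In floxed spots rich in stellate cell markers, Lcn2 was at -0.95 (-2.03 to -0.04) from 10 UMIs, and at -0.89 (-1.98 to 0.02) without the spot of at least 5 Lcn2 UMIs. In AEG-1ΔMAC it was at -0.23 (-0.68 to 0.18).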
